A study of Homo sapiens with 24 samples.

Results

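The comparison set 4 AsPC-1 xenograft tumors collected 48 h after the last dose of IK-595 against 4 vehicle tumors, 8 of the 24 tumors in the series, all picked by their labels. AsPC-1 is an established human line of pancreatic ductal adenocarcinoma. The mice bearing these tumors took 3 oral doses every other day, either of IK-595 at 6 mg/kg or of the carrier, 5% DMSO in 95% PEG400. Because doses came every other day, 48 h after a dose is the end of a dosing interval, the trough. The vehicle tumors were taken 2 h after their last dose, so treatment and hours since dosing cannot be told apart here. The other 16 tumors were taken 2, 4, 8 and 24 h after IK-595, with 4 animals at each time, and serve below as levels at earlier times. Transcripts were measured by sequencing polyA RNA, and each tumor came from its own animal.

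IK-595 holds RAF and MEK, neighbouring kinases of one signal chain, together as a molecular glue. RAS, RAF, MEK and ERK form a chain that passes growth signals to the nucleus, and the chain is active in most pancreatic ductal cancers. Active ERK raises transcripts of its own brakes, such as dual-specificity phosphatases and Sprouty proteins, and of cyclin D1 and MYC, through which cells enter division. The level of those transcripts is therefore read as the output of the chain.

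Depth was 18454216 to 20639340 counts in the IK-595 48 h tumors and 19681656 to 20578007 counts in the vehicle tumors. Levels are given in CPM, a gene's count scaled to a common library size, which is not corrected for gene length. A fold change is on the log2 scale, 48 h over vehicle, with its standard error (SE) from edgeR, and a gene is said to have risen or fallen at an adjusted p under 0.05. Calls were made for 1821 (9.98%) of 18242 tested genes, of which 1007 (5.52%) rose and 814 (4.46%) fell at 48 h. Without a threshold, 1859 genes (10.2%) were higher in all 4 IK-595 48 h tumors than in any vehicle tumor and 1689 (9.26%) were lower. The median log2 fold change was 0.92 among genes that rose and -0.82 among those that fell, and the median SE over all genes was 0.23. A fold of at least 2 was reached by 451 of the genes that rose and 324 of those that fell (775 genes, 4.25%). Leaving out single tumors moved the counts. Without vehicle tumor 1, 645 rose and 397 fell, and without vehicle tumor 2, 657 and 472. Without 48 h tumor 2 the counts were 581 and 382, and without 48 h tumor 4, 637 and 462. The first principal component of the 8 tumors held 40.6% of the variance and placed 48 h tumors 1 to 4 at 17.82, 59.46, 11.5 and 64.86, against -49.23, -57.62, -20.75 and -26.06 for vehicle tumors 1 to 4. The groups did not overlap on it, and 48 h tumor 3 and vehicle tumor 3 were the closest members of their groups to each other.

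Markers of epithelium and of other pancreas cells were read first. The summed level of 10 markers of AsPC-1 epithelium (keratins, EPCAM, CDH1, CEACAM5, CEACAM6, MUC1 and CLDN4) was 13547 to 17599 CPM in the 48 h tumors and 9482 to 12688 CPM in the vehicle tumors. Of these markers 6 rose and 0 fell, so their level differed between the groups. Several are reported again below. Acinar and endocrine pancreas markers together reached at most 0.249 CPM at 48 h and 0.436 CPM in vehicle. The gene groups below come from lists written with earlier results of these data known, so their counts only describe these tumors. Each is to be read against the shares over all genes, 5.52% for rises and 4.46% for falls. Most genes below were named by a fixed rule; the genes MKI67, CDK1, PLK1, CCNB1, CCNB2, TOP2A, RRM2, MYC, EGR1, EREG, SLC26A3, SLC5A1, CDHR2, PHGR1, KRT14, JUN, JUND, CLDN3, APOBEC3B, GAPDH, LDHA, SLC2A1, PMAIP1, NR1D1, DBP and MT-CO1 were chosen after their values were seen, as were the called members of lists with at most 2 calls.

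Transcripts driven by ERK were close to vehicle at 48 h, but not all of them. Over a list of 10 ERK output genes, 0 rose and 2 fell, PHLDA1 and ETV5, against 4.46% of all genes that fell. Their mean log2 CPM was 6.31, 5.96, 6.29 and 6.03 in 48 h tumors 1 to 4, against 6.55, 6.48, 6.56 and 6.51 in vehicle tumors 1 to 4, a difference of -0.379 (SE 0.090). The groups did not overlap. By time the same mean was 6.52 ± 0.04 (SD, n = 4) in vehicle, then 4.11 ± 0.20 for the 2 h tumors, 2.96 ± 0.42 for 4 h, 2.74 ± 0.52 for 8 h, 5.56 ± 0.23 for 24 h and 6.15 ± 0.18 for 48 h.

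PHLDA1, a pleckstrin-homology gene that ERK induces (ENSG00000139289.14, chromosome 12 from 76025447 to 76033932, GRCh38), was at 134, 107, 214 and 120 CPM in the 48 h tumors and at 294, 300, 256 and 273 CPM in vehicle tumors. Every 48 h tumor lay below every vehicle tumor, with a log2 fold change of -0.97 ± 0.21 (SE) and an adjusted p of 0.00481. ETV5, an ETS transcription factor under ERK control, was at 14.9, 14.2, 13.1 and 10.8 CPM at 48 h and at 29.7, 26.9, 24.9 and 28.1 CPM in vehicle (-1.05 ± 0.29, adjusted p = 0.0227). It also lay lower in every 48 h tumor, yet its call was lost when vehicle tumor 1, 2 or 4 or 48 h tumor 2, 3 or 4 was left out. The related factor ETV1, from the ETS list, fell too, with 38.3, 27.7, 27.9 and 20.5 CPM at 48 h and 61.3, 49.5, 67.4 and 64.2 CPM in vehicle (-1.08 ± 0.25, adjusted p = 0.00741). ETV4, the third factor of that subfamily, averaged 45.8 ± 7.44 CPM at 48 h and 44.4 ± 6.56 CPM in vehicle (SD, n = 4 each), and its groups overlapped.

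The other ERK output genes overlapped between groups. DUSP6, the ERK phosphatase, was at 246, 228, 297 and 226 CPM at 48 h and at 251, 229, 254 and 288 CPM in vehicle (log2 fold change -0.03 ± 0.30, adjusted p = 0.968). CCND1, which encodes cyclin D1, was at 296, 240, 275 and 233 CPM at 48 h and at 292, 280, 234 and 255 CPM in vehicle (-0.02 ± 0.23). At 8 h these genes had stood at 7.17 CPM for DUSP6 and 30.4 CPM for CCND1. The receptor kinase gene EPHA2 gave -0.16 ± 0.26 and the phosphatase gene DUSP4 -0.44 ± 0.29, while SPRY4 gave -0.30 ± 0.29 and SPRY2 -0.13 ± 0.20. EPHA4, at 1.95 CPM on average at 48 h and 2.94 CPM in vehicle, was too low to place, with an SE of 0.71. On a list of 17 ERK feedback genes, which shares DUSP4, DUSP6, SPRY2 and SPRY4 with the output list, 1 rose, DUSP8, a phosphatase of the stress kinases JNK and p38. It was at 9.12, 11.7, 9.12 and 9.43 CPM at 48 h, all above the 3.32, 2.52, 3.78 and 5.04 CPM of vehicle tumors (1.42 ± 0.22, adjusted p = 0.00035). The call of DUSP8 was lost in both limma tests on the deposited TPM values. MYC was at 44.9, 34.8, 63.5 and 41 CPM at 48 h and at 78.3, 83.2, 63.9 and 69.4 CPM in vehicle. All 4 of the 48 h tumors were below the vehicle tumors, though 48 h tumor 3 and vehicle tumor 3 nearly met, and the change did not pass the test (-0.68 ± 0.25, adjusted p = 0.0856).

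Genes of mitosis were lower throughout. All 28 genes tested of the G2/M and mitosis list fell at 48 h, against 4.46% of all genes, with log2 fold changes of -2.27 to -1.31 and a median of -1.85, where the median of all genes was -0.012. Each of the 28 was lower in all 4 of the 48 h tumors than in any vehicle tumor, against 9.26% of all genes. The count stayed at 28 when any 1 of the 8 tumors was left out and under each other test, scaling and filter tried. The mean log2 CPM of the list was 3.73, 2.78, 4.27 and 3.44 in 48 h tumors 1 to 4, against 5.82, 5.56, 4.86 and 5.50 in vehicle tumors 1 to 4. The nearest pair was again 48 h tumor 3 and vehicle tumor 3. In bulk tumors, fewer dividing cells and less of these transcripts per cell cannot be told apart.

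**Figure D1:**
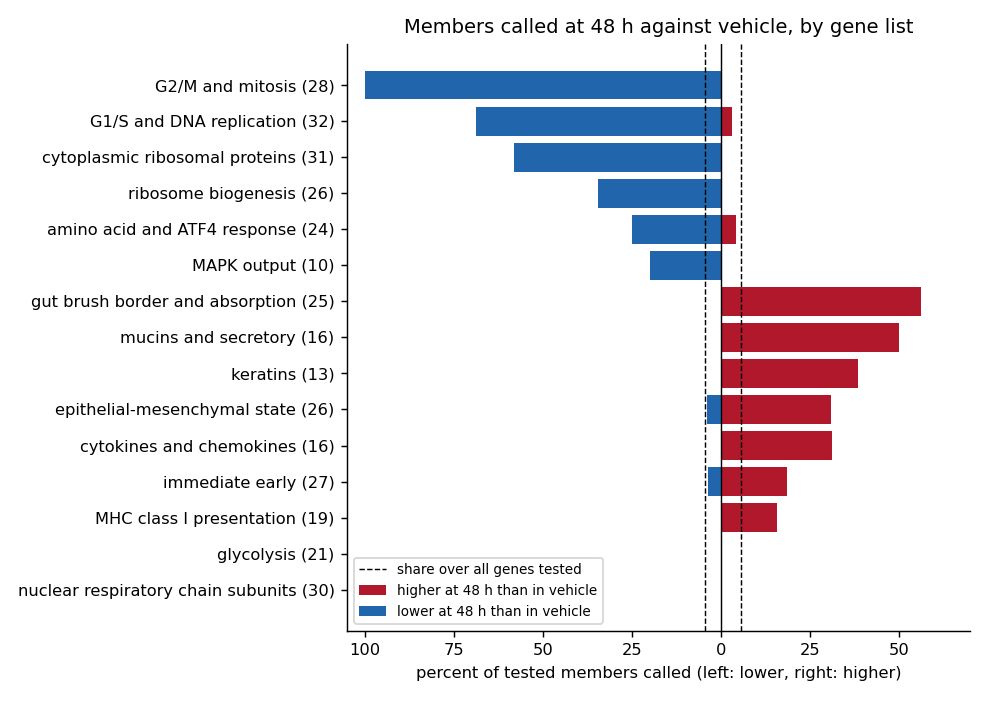
Percent of tested members called lower (bars to the left) or higher (bars to the right) at 48 h than in vehicle for 15 gene lists, with the number tested in brackets and dashed lines at the shares over all genes, 4.46% lower and 5.52% higher. The G2/M bar reaches all 28 members, while 0 of 21 glycolysis genes and 0 of 30 nuclear respiratory chain genes were called.

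The entry into mitosis is set by the kinase CDK1 with its cyclins, and genes for these proteins fell together. MKI67, the proliferation marker Ki-67 (ENSG00000148773.14, chromosome 10 from 128096659 to 128126385, GRCh38), was at 73, 33.4, 119 and 40.5 CPM at 48 h and at 326, 283, 161 and 253 CPM in vehicle. The groups did not overlap, and the log2 fold change was -1.94 ± 0.40 (adjusted p = 0.00341). CDK1 itself was at 15.2, 6.17, 26.2 and 10.9 CPM at 48 h and at 81.3, 68.6, 38.3 and 60.6 CPM in vehicle (-2.09 ± 0.40). Its activating phosphatase CDC25C (ENSG00000158402.21, chromosome 5 from 138285265 to 138338355) was at 2.14, 0.851, 3.5 and 1.71 CPM at 48 h and at 11.7, 8.52, 8.21 and 11.3 CPM in vehicle. That was -2.27 ± 0.43 (adjusted p = 0.00156), the largest fall of the list. The mitotic kinase PLK1 (ENSG00000166851.15, chromosome 16 from 23677656 to 23690367) was at 15.1, 13.7, 21.5 and 15.3 CPM at 48 h and at 57.4, 55.1, 26.6 and 45.9 CPM in vehicle (-1.50 ± 0.25, adjusted p = 0.000454). CCNB1 and CCNB2, the B-type cyclins, averaged 24.5 ± 9.71 and 10.2 ± 2.58 CPM at 48 h and 95.9 ± 30 and 25.4 ± 6.39 CPM in vehicle (SD, n = 4 each). TOP2A, the topoisomerase that untangles chromosomes, averaged 41 ± 19.2 CPM at 48 h and 159 ± 32.5 CPM in vehicle.

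The 12 largest falls among protein-coding genes (mean log2 CPM of at least 2, groups not overlapping) were IGFN1, CDC25C, ASPM, KIF14, CLDN2, HMMR, SKA3, DLGAP5, KIF20A, CENPF, CENPW and ANLN. Of these CDC25C, KIF20A and CENPF are on the mitosis list. ASPM, a spindle pole protein (ENSG00000066279.19, chromosome 1 from 197084128 to 197146694), was at 20.7, 7.87, 20.7 and 8.35 CPM at 48 h and at 83.9, 68, 53.3 and 68.1 CPM in vehicle (-2.24 ± 0.38, adjusted p = 0.000689). ANLN, the cleavage furrow protein anillin, was at 58.6, 29.2, 78.8 and 31.8 CPM at 48 h and at 248, 234, 166 and 196 CPM in vehicle (-2.09 ± 0.36). Both genes kept a wide gap between the groups. IGFN1 gave -3.09 ± 0.68, and CLDN2, a claudin that forms paracellular pores, gave -2.20 ± 0.49. IGFN1 was at 3.39, 1.86, 8.12 and 1.88 CPM at 48 h and at 18.5, 22.6, 66.4 and 22.4 CPM in vehicle, where tumor 3 stood far above the others.

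Because the mitotic genes moved together, the bases before their start sites were read. In dividing cells many such promoters hold a cell cycle homology region (CHR, TTTGAA) and CCAAT boxes, which bind the MuvB complexes and the factor NF-Y. RefSeq windows of 300 bases (GRCh38.p14, 250 before and 50 after a start) were found for 22 of the 28 genes, 28 windows in all. Read on both strands, TTTGAA stood in 16 of them (57.1%, against 15.2% of all 35116 windows), CCAAT in 23 (82.1%, against 34.6%), and both in 15 (53.6%, against 5.90%). Below are the 250 bases upstream for the named genes CDC25C, ASPM, CCNB2 and PLK1, which hold both, and for KIF20A, which holds CCAAT but no TTTGAA there and fell as far (-2.14 ± 0.34). Capitals mark TTTGAA and CCAAT or their reverse complements, which do not overlap. CDC25C has 4 windows, and the one with both motifs is shown.
CDC25C, chr5:138331805-138332054, minus strand: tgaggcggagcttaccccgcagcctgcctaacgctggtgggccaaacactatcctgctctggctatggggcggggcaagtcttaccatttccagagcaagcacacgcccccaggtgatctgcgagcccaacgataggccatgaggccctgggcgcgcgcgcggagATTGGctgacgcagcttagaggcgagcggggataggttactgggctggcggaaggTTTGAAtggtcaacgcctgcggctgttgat
ASPM, chr1:197146670-197146919, minus strand: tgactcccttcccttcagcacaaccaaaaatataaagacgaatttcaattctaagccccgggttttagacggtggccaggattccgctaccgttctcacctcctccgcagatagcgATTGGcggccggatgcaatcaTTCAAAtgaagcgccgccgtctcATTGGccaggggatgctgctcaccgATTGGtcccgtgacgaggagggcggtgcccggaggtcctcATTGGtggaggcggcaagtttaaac
CCNB2, chr15:59104896-59105145, plus strand: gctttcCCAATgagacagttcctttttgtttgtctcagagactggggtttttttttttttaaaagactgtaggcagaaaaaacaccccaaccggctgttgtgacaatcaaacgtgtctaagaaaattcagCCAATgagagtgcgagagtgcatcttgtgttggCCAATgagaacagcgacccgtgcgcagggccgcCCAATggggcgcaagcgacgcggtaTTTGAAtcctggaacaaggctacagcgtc
PLK1, chr16:23678639-23678888, plus strand: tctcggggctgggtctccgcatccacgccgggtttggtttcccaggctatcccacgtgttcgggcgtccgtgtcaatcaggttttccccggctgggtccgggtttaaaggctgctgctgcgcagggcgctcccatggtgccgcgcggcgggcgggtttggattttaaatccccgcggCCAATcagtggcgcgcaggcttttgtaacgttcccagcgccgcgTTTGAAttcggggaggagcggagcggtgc
KIF20A, chr5:138178862-138179111, plus strand: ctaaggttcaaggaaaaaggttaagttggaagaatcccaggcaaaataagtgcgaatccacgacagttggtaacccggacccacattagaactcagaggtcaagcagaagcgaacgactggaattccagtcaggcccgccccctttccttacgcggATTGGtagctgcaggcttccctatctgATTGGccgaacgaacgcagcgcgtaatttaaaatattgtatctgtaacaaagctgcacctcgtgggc
In CCNB2 and PLK1 the last base of the TTTGAA lay 24 bases before the start, and in CDC25C 25 bases. These matches describe letters only.

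Genes of DNA replication fell less evenly. Of 32 genes tested on the G1/S and DNA replication list, 22 fell and 1 rose, with a median log2 fold change of -1.04. Lower in every 48 h tumor than in any vehicle tumor were 16. Over all genes, 4.46% fell and 9.26% were lower in this way. The count of falls was 5 without vehicle tumor 1, 11 without vehicle tumor 2, 5 without 48 h tumor 2 and 7 without 48 h tumor 4. The mean log2 CPM was 4.06, 3.29, 4.37 and 3.62 in 48 h tumors 1 to 4, against 5.22, 5.05, 4.35 and 4.96 in vehicle tumors 1 to 4. Here the groups overlapped, since vehicle tumor 3 lay just under 48 h tumor 3.

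Enzymes that supply nucleotides were among the lower genes. TYMS, thymidylate synthase, was at 20.6, 8.88, 21.1 and 14 CPM at 48 h and at 59.8, 51.6, 30.6 and 44.1 CPM in vehicle (-1.52 ± 0.30, adjusted p = 0.00186). Its groups did not overlap, and the call held without any 1 tumor. MCM7, of the helicase that opens replication origins, fell by 0.95 ± 0.20 on the log2 scale, with 90.9 ± 19.9 CPM at 48 h and 175 ± 34.6 CPM in vehicle (SD, n = 4 each). RRM2, of ribonucleotide reductase, averaged 30.9 CPM at 48 h and 96.5 CPM in vehicle, but was not called without 48 h tumor 2 or 4 or vehicle tumor 1. The gene that rose was CCND3, cyclin D3, with 42.1, 68, 46.6 and 67.3 CPM at 48 h and 29, 35.9, 26.8 and 38.2 CPM in vehicle (0.79 ± 0.21, adjusted p = 0.0198). Its call did not hold without 48 h tumor 2 or 4 or vehicle tumor 1 or 3. RefSeq windows of 26 of the 32 genes, 37 in all, held TTTGAA in 1 (2.70%), CCAAT in 26 (70.3%) and the E2F motif TTTGGCGC in 8 (21.6%, against 0.652% of all windows). Here too the matches describe letters only.

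Transcripts for making ribosomes were lower as well, by smaller steps. Of 31 cytoplasmic ribosomal protein genes, 18 fell and 0 rose, with a median log2 fold change of -0.48. Lower in every 48 h tumor than in any vehicle tumor were 28. Over all genes, 4.46% fell and 9.26% were lower in this way. The count of falls was 10 without vehicle tumor 2, 10 without 48 h tumor 2 and 11 without 48 h tumor 3, and 28 when the 8 tumors were fitted on their own. Their mean log2 CPM was 8.65, 8.67, 8.72 and 8.96 in 48 h tumors 1 to 4, against 9.24, 9.30, 9.35 and 9.20 in vehicle tumors 1 to 4. RPL4, of the large subunit, was at 573, 498, 633 and 608 CPM at 48 h and at 1047, 1044, 957 and 935 CPM in vehicle (-0.79 ± 0.13, adjusted p = 0.000566). RPS12, of the small subunit, was at 232, 224, 225 and 246 CPM at 48 h and at 402, 408, 432 and 350 CPM in vehicle (-0.78 ± 0.15, adjusted p = 0.00122). In both genes the spread within a group was small beside the gap between groups. RPL8, with the highest CPM of the members that did not pass, was at 1457, 1646, 1563 and 2134 CPM at 48 h and overlapped the 2030, 2167, 2398 and 1915 CPM of vehicle.

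Of 26 genes for ribosome biogenesis, the processing and assembly of ribosomal RNA, 9 fell and 0 rose (median -0.47). This count rested on single tumors, at 1 without 48 h tumor 2, 2 without vehicle tumor 1, 3 without 48 h tumor 4 and 4 without vehicle tumor 2 or vehicle tumor 4. All 26 log2 fold changes lay below 0, from -0.74 to -0.18, as did 9343 of all 18242 genes. NPM1, nucleophosmin, was at 526, 438, 546 and 433 CPM at 48 h and at 889, 846, 728 and 776 CPM in vehicle, with no overlap (-0.74 ± 0.14, adjusted p = 0.00186). FBL, the methyltransferase fibrillarin, was at 41.7, 38.9, 57.4 and 49.8 CPM at 48 h and at 82.4, 80.7, 57.6 and 77.9 CPM in vehicle (-0.67 ± 0.16). Its highest 48 h tumor and lowest vehicle tumor, both numbered 3, almost met, and the call was lost without 48 h tumor 2. The helicase gene DDX21 was at 165, 123, 173 and 127 CPM at 48 h and at 222, 230, 174 and 181 CPM in vehicle, and did not pass (adjusted p = 0.147). The E box CACGTG, which MYC can bind, stood in 12 of 26 RefSeq windows of 21 of these genes (46.2%, against 7.26% of all windows). These matches describe letters only, and a part of MYC in the falls was not tested.

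**Figure D2:**
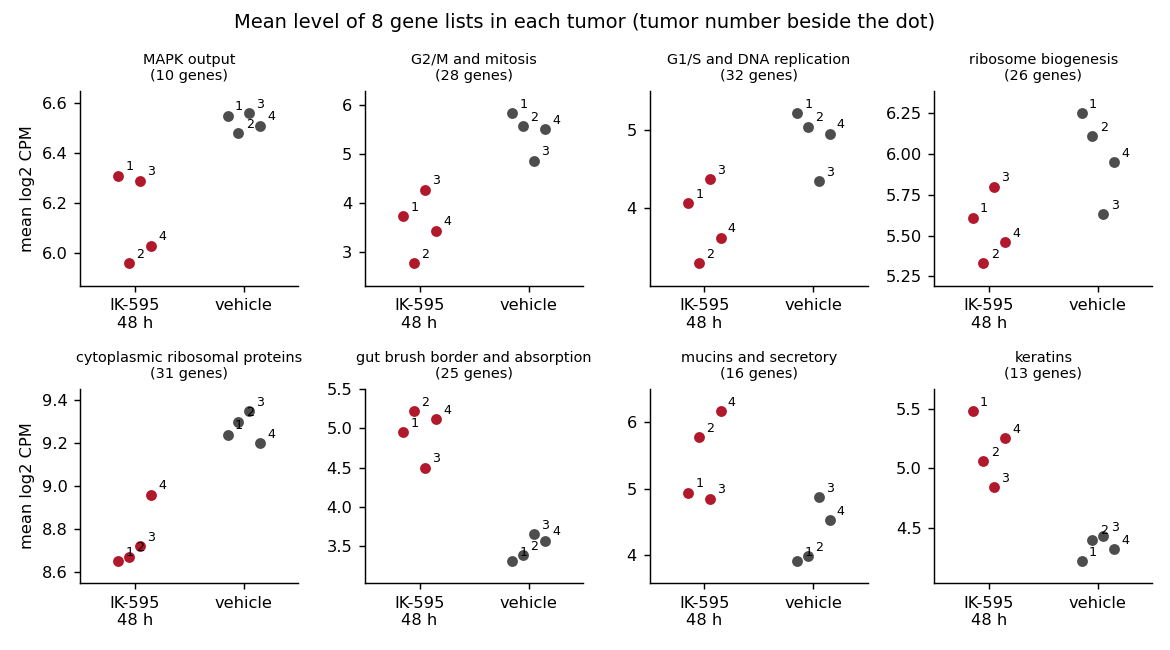
Mean log2 CPM of the tested genes of 8 lists in each tumor, IK-595 48 h at the left and vehicle at the right, with the tumor number beside each dot. The groups are apart for MAPK output (at most 6.31 at 48 h, at least 6.48 in vehicle), G2/M, ribosomal proteins, gut brush border and keratins, and overlap for G1/S, ribosome biogenesis and mucins.

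Genes of the gut surface rose. Of 25 genes tested on a list for the intestinal brush border and absorption, 14 rose and 0 fell, against 5.52% of all genes that rose. These 14 did not overlap between groups. Over all genes, 10.2% were higher in every 48 h tumor than in any vehicle tumor. The median log2 fold change of the 25 was 0.88, and the count stayed at 12 to 14 without any 1 tumor. The mean log2 CPM of the list was 4.95, 5.22, 4.50 and 5.12 in 48 h tumors 1 to 4, against 3.31, 3.38, 3.65 and 3.57 in vehicle tumors 1 to 4. AsPC-1 is of pancreatic origin, and genes of this kind are known from enterocytes.

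BTNL3, a butyrophilin-like surface protein of gut epithelium (ENSG00000168903.9, chromosome 5 from 180988845 to 181006727, GRCh38), was at 24.3, 43.7, 15.7 and 32.7 CPM at 48 h and at 1.32, 1.74, 2.14 and 0.593 CPM in vehicle. That was 4.32 ± 0.48 on the log2 scale (adjusted p = 2.48e-05), higher in 4 of 4 tumors. Its partner BTNL8, a near copy with which it can share reads, was at 32.9, 42.7, 15.8 and 33.4 CPM at 48 h and at 4.74, 6.73, 8.16 and 6.62 CPM in vehicle (2.25 ± 0.31). RNF186, a ubiquitin ligase of the colon (ENSG00000178828.7, chromosome 1 from 19814029 to 19815278), was at 11.2, 17.3, 9.06 and 16.2 CPM at 48 h and at 0.488, 1.26, 2.29 and 1.73 CPM in vehicle (3.21 ± 0.40, adjusted p = 6.04e-05). In all these genes 48 h tumor 3 was the lowest of its group, still above every vehicle tumor. SLC26A3, the chloride and bicarbonate exchanger of the colon, was at 66.6, 74.4, 44 and 36.7 CPM at 48 h and at 5.52, 7.07, 16.4 and 10.8 CPM in vehicle (2.48 ± 0.46). SLC5A1, the sodium and glucose transporter, was at 48.8, 76.4, 45.7 and 56.9 CPM at 48 h and at 14.8, 16.8, 19 and 32.1 CPM in vehicle (1.46 ± 0.27). CDHR2, a protocadherin that links microvilli, varied little among the 48 h tumors, at 455, 466, 443 and 455 CPM at 48 h and 226, 260, 290 and 254 CPM in vehicle (0.82 ± 0.14). ANPEP, the brush border aminopeptidase, averaged 428 ± 64.3 CPM at 48 h and 418 ± 127 CPM in vehicle and overlapped, so the list did not move as a whole.

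The 250 bases before the start of RNF186 are printed because RNF186 is among the 12 largest rises and its window holds the core GTTAAT, part of the site of HNF1 factors, which drive many gut and liver genes. This core stood in 11 of 30 RefSeq windows of 24 of the 34 genes on the list (36.7%, against 6.88% of all windows). Capitals mark it, here as its reverse complement.
RNF186, chr1:19815284-19815533, minus strand: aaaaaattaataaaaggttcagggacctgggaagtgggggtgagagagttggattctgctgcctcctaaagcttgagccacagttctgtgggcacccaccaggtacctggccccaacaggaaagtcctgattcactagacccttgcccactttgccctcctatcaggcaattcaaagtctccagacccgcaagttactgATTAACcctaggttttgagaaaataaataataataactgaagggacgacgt
Its last base lay 46 bases before the start, the window also holds 1 TTTGAA that is not capitalized, and the match describes letters only.

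Mucins and secretory genes rose in part. Of 16 tested, 8 rose and 0 fell (median 1.20), and the count was 5 without 48 h tumor 2 or vehicle tumor 2 and 4 without 48 h tumor 4. MUC12, a membrane mucin (ENSG00000205277.10, chromosome 7 from 100969623 to 101018949), was at 650, 667, 477 and 519 CPM at 48 h and at 70.5, 90.6, 120 and 90.8 CPM in vehicle. It rose by 2.64 ± 0.26 on the log2 scale (adjusted p = 5.97e-06), the smallest adjusted p of the genes named here. MUC13 was at 1096, 1584, 749 and 1681 CPM at 48 h and at 260, 262, 466 and 366 CPM in vehicle (1.92 ± 0.34). MUC1 was at 340, 648, 322 and 929 CPM at 48 h and at 103, 138, 166 and 280 CPM in vehicle (1.71 ± 0.37), with tumors 2 and 4 high at 48 h. MUC17, also a membrane mucin, was at 3297, 2891, 2506 and 1922 CPM at 48 h, overlapped the 1424, 1548, 2181 and 1285 CPM of vehicle and did not pass (adjusted p = 0.117).

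Epithelial junction genes were higher, and the mesenchymal filament gene VIM was lower. Of 26 genes on the epithelial-mesenchymal list 8 rose, all of them epithelial (CDH1, EPCAM, OCLN, CLDN3, CLDN4, CLDN7, ESRP2 and OVOL1), and 1 fell. CDH1, E-cadherin, was at 339, 405, 299 and 275 CPM at 48 h and at 152, 169, 167 and 155 CPM in vehicle (1.03 ± 0.19, adjusted p = 0.00125). CLDN4, a tight junction claudin, was at 815, 1338, 978 and 1431 CPM at 48 h and at 401, 400, 490 and 445 CPM in vehicle (1.39 ± 0.25, adjusted p = 0.000815). VIM, vimentin, was at 1608, 1244, 1650 and 1618 CPM at 48 h and at 2855, 3158, 2982 and 2614 CPM in vehicle (-0.92 ± 0.15, adjusted p = 0.000386). None of the 3 overlapped between groups. Host fibroblasts also make vimentin transcripts. The summed level of 15 fibroblast and pericyte genes was 968 to 2046 CPM at 48 h and 1158 to 2362 CPM in vehicle. Of these genes 0 were called and 0 were at zero in all tumors of a group. Their log2 fold changes lay below 0 for 12 and above 0 for 3, with a median of -0.27. Host fibroblasts are mouse cells and the build was human, so these levels may miss much of the host transcript. The part of host fibroblasts in the VIM result was not tested.

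**Figure D3:**
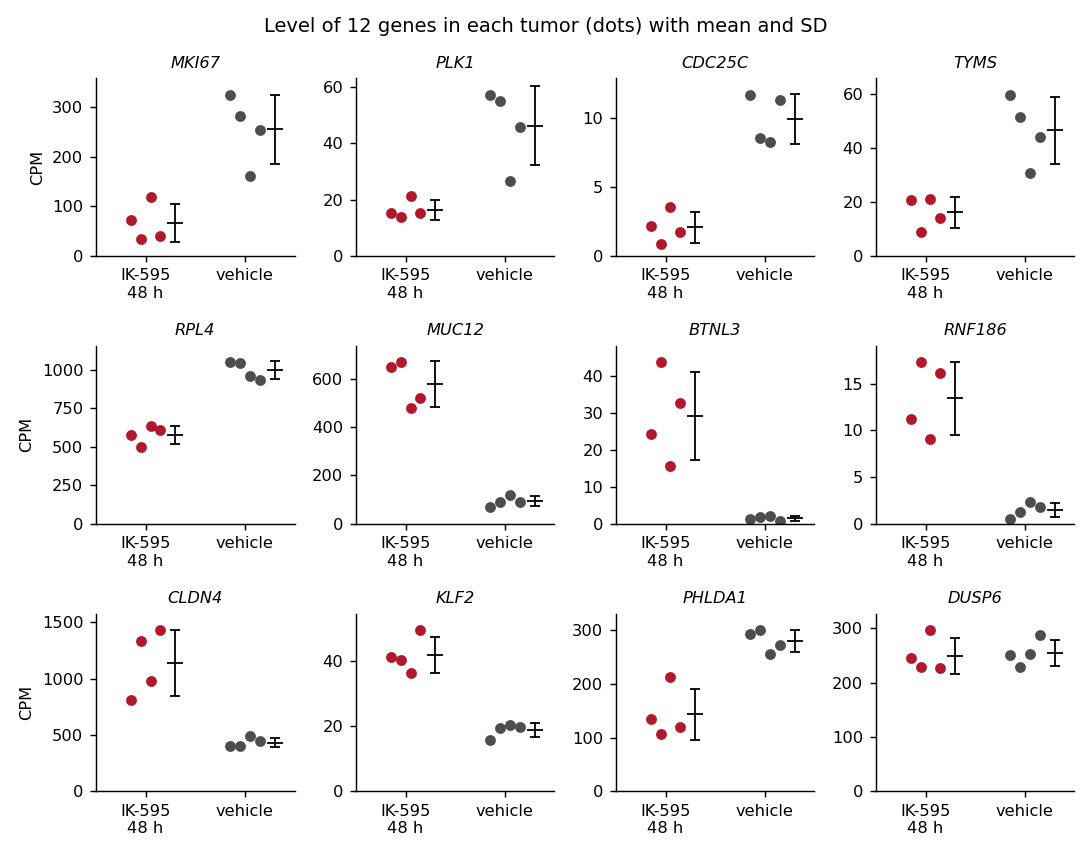
CPM of 12 genes in each tumor, with IK-595 48 h tumors at the left of each panel, vehicle tumors at the right, and the mean and SD of 4 tumors as a bar. MKI67, PLK1, CDC25C, TYMS, RPL4 and PHLDA1 are lower in every 48 h tumor, MUC12, BTNL3, RNF186, CLDN4 and KLF2 are higher, and DUSP6 overlaps.

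Of 13 keratin genes 5 rose and 0 fell, with 2 rises without vehicle tumor 1 and 3 without 48 h tumor 1 or vehicle tumor 4. KRT16, a keratin of stressed epithelium, was at 165, 90.3, 53.2 and 105 CPM at 48 h and at 7.96, 13.9, 22.6 and 18.3 CPM in vehicle (2.72 ± 0.42, adjusted p = 0.000386). KRT17 and KRT14 were high in a single tumor. KRT17 was at 76.6, 2.71, 3.22 and 4.72 CPM at 48 h and at 1.91, 1.99, 2.59 and 1.83 CPM in vehicle, and KRT14 at 103, 0.744, 0.167 and 0.625 CPM at 48 h and at 0.293, 0.242, 0.398 and 0.494 CPM in vehicle. Without 48 h tumor 1, as without vehicle tumor 1 or 2, neither was called. Keratins 14, 16 and 17 are near copies, so their reads may be shared. KRT8, a keratin of simple epithelium, averaged 5601 ± 754 CPM at 48 h and 4924 ± 1013 CPM in vehicle and overlapped.

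Pancreatic cancers are sorted into classical and basal-like subtypes, and 6 of 24 classical markers rose with 0 falls, as did 4 of 15 basal-like markers with 0 falls. The classical count was 3 without 48 h tumor 2 or 4 or vehicle tumor 1, 2 or 4, and the basal-like count was 2 without 48 h tumor 1 or vehicle tumor 1 or 2. ST6GALNAC1, a sialyltransferase of the classical list, was at 19.1, 36.5, 17.1 and 41.3 CPM at 48 h and at 2.34, 3.34, 8.11 and 5.68 CPM in vehicle (2.55 ± 0.45, adjusted p = 0.000904). CDH3, P-cadherin of the basal-like list, was at 56.6, 64.1, 56.6 and 46 CPM at 48 h and at 19.9, 27.8, 21.5 and 30.3 CPM in vehicle (1.16 ± 0.19, adjusted p = 0.000387). Members of both lists thus rose. CEACAM5, an adhesion molecule and tumor marker, was at 176, 437, 162 and 940 CPM at 48 h and at 28.7, 41.1, 186 and 93.4 CPM in vehicle. It overlapped, and its call (2.30 ± 0.70, adjusted p = 0.0438) did not hold without 48 h tumor 2 or 4 or vehicle tumor 1, 2 or 4.

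Among the 12 largest rises of protein-coding genes, several stood outside these lists. ATP10B, a phospholipid flippase, was at 28.2, 96.3, 13.3 and 85.1 CPM at 48 h and at 0.537, 1.99, 2.54 and 1.14 CPM in vehicle (5.16 ± 0.98, adjusted p = 0.00206). PADI2, an enzyme that turns arginine into citrulline in proteins, was at 63.9, 131, 49.7 and 98.5 CPM at 48 h and at 6.54, 7.5, 15.5 and 12.5 CPM in vehicle (3.03 ± 0.44, adjusted p = 0.000243). In both, tumors 2 and 4 were the highest at 48 h. BICDL2, PRR15L, TMC4 and BCAS1 rose by 4.02, 2.67, 2.62 and 2.58 on the log2 scale, and the brush border protease gene MEP1A by 2.75. PHGR1, a gene of gut epithelium left out by the floor on mean level, was at 12.1, 42.2, 6 and 35.1 CPM at 48 h and at 0.342, 0.436, 0.498 and 0.988 CPM in vehicle (5.38 ± 0.80).

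**Figure D4:**
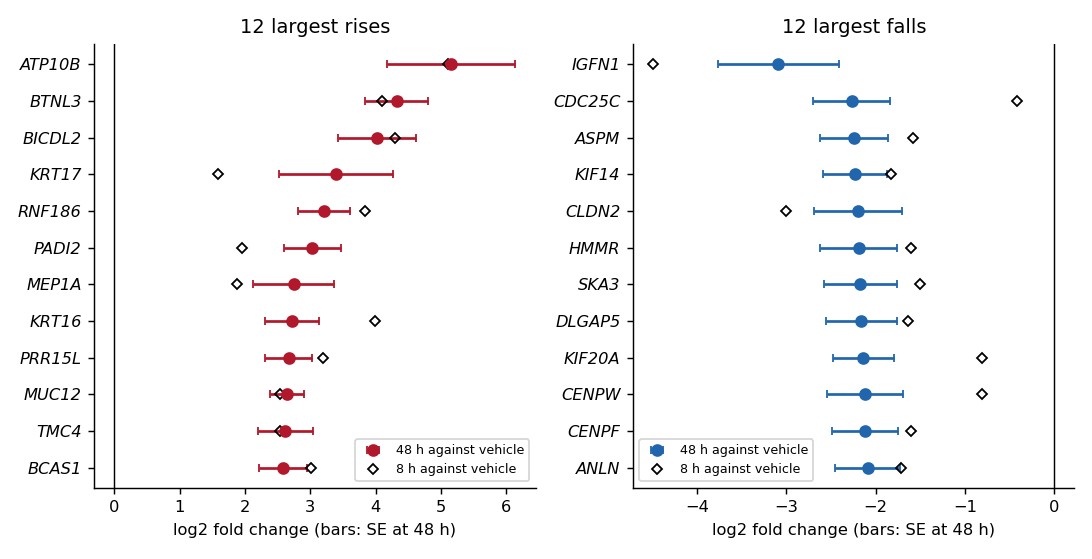
Log2 fold change over vehicle of the 12 largest rises (left panel) and 12 largest falls (right panel) at 48 h, as filled dots with SE, with the 8 h value against the same 4 vehicle tumors as open diamonds. ATP10B lies at 5.16 and CDC25C at -2.27 at 48 h.

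The collagenase gene MMP1 fell. MMP1, an interstitial collagenase (ENSG00000196611.6, chromosome 11 from 102789920 to 102798160), was at 0.249, 0.372, 0.667 and 1.42 CPM at 48 h and at 7.23, 16.3, 42.8 and 10.9 CPM in vehicle (-4.83 ± 0.67, adjusted p = 0.000146). MMP10, stromelysin 2, was at 0, 0.213, 0 and 0.0568 CPM at 48 h and at 0.342, 2.61, 3.33 and 0.988 CPM in vehicle. On the list of 24 proteases they were the 2 falls, and 3 genes rose. The serine proteases PRSS22 (2.07 ± 0.46), KLK6 (1.28 ± 0.31) and ST14 (0.92 ± 0.23), which encodes matriptase, were those that rose. ST14 was not called without 48 h tumor 4 or vehicle tumor 1.

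On the integrin and adhesion list of 22 genes 3 rose and 1 fell, with 1 rise without vehicle tumor 2. ITGB6, the epithelial integrin beta 6, was at 89.8, 65, 64.2 and 49.2 CPM at 48 h and at 30, 27.1, 27.7 and 32 CPM in vehicle (1.20 ± 0.19, adjusted p = 0.000321). CD44, the hyaluronan receptor, was at 265, 124, 255 and 85.3 CPM at 48 h and at 480, 451, 357 and 467 CPM in vehicle (-1.27 ± 0.34). The groups did not overlap, but the call did not hold without 48 h tumor 2 or 4 or vehicle tumor 1 or 2. LGR5, a WNT-linked stem cell receptor, was at 3.39, 1.28, 4.22 and 1.93 CPM at 48 h and at 12.8, 7.26, 5.52 and 7.8 CPM in vehicle (-1.62 ± 0.35, adjusted p = 0.00427). On the same list of 12 WNT targets, AXIN2, a feedback inhibitor, rose, with 3.44, 3.3, 3.06 and 3.18 CPM at 48 h and 1.07, 1.31, 1.89 and 1.28 CPM in vehicle (1.22 ± 0.26, adjusted p = 0.00415), and so did RNF43, a ubiquitin ligase that limits WNT receptors (0.59 ± 0.15). That list had 2 rises and 2 falls, and 0 rises in either limma test on the deposited TPM values.

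Immediate early genes, the first to answer a growth signal, were split. Of 27 tested, 5 rose and 1 fell, with 2 rises without vehicle tumor 1. KLF2, a Krüppel-like factor, was at 41.1, 40.3, 36.4 and 49.4 CPM at 48 h and at 15.6, 19.5, 20.3 and 19.9 CPM in vehicle (1.15 ± 0.17, adjusted p = 0.000197). KLF4 was at 164, 214, 148 and 195 CPM at 48 h and at 74.7, 82, 96.5 and 79.9 CPM in vehicle (1.12 ± 0.19). Both stood apart from vehicle in 4 of 4 tumors. KLF6 (0.51 ± 0.13), JUND (0.70 ± 0.18) and JUN (0.78 ± 0.21) rose by less. FOSB, an AP-1 partner of JUN, was at 3.84, 2.39, 3.06 and 2.5 CPM at 48 h and at 7.08, 13.6, 9.9 and 5.88 CPM in vehicle (-1.62 ± 0.43), and was not called without 48 h tumor 2 or 4 or vehicle tumor 2. EGR1, a direct ERK target, was at 31.1, 17, 33.1 and 17.4 CPM at 48 h and at 32.7, 68.8, 54.6 and 35.9 CPM in vehicle, and overlapped (adjusted p = 0.199).

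Receptor genes did not move as a group. Of 28 other receptor kinases, ephrins and adaptors 6 rose and 1 fell (ROR1, -0.60 ± 0.19), and the median log2 fold change was -0.08. The rises numbered 1 or 2 without 48 h tumor 2 or 4 or vehicle tumor 1, 2 or 4. The falls numbered 3 without 48 h tumor 3 or vehicle tumor 3 and 0 without any 1 of the others. EPHA1, a low gene, was at 3.19, 4.84, 5.17 and 8.47 CPM at 48 h and at 1.12, 2.18, 1.79 and 1.53 CPM in vehicle (1.70 ± 0.33, adjusted p = 0.00169). EFNB1, an ephrin ligand, was at 499, 601, 567 and 566 CPM at 48 h and at 344, 410, 435 and 359 CPM in vehicle (0.53 ± 0.14, adjusted p = 0.0174). ERBB2 was the 1 gene of 8 on the EGFR family list to rise, with 101, 123, 102 and 114 CPM at 48 h and 68.4, 67.7, 73.5 and 82.3 CPM in vehicle (0.59 ± 0.16). The calls of ERBB2 and of EFNB1 were lost without 48 h tumor 2 or vehicle tumor 1, among others. EREG, the ligand epiregulin, was at 25.4, 16.3, 23.4 and 9.21 CPM at 48 h and at 46.7, 39.9, 21.1 and 25.2 CPM in vehicle (adjusted p = 0.057). Within the chain itself 2 of 25 genes rose, the scaffold gene KSR1 (0.50 ± 0.13) and the ERK effector kinase gene RPS6KA1 (0.37 ± 0.11), a share of the order of the 5.52% over all genes; leaving out single tumors gave 0 to 2.

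Some genes of immune contact rose. Of 16 cytokine genes 5 rose and 0 fell, and the count was 3 or 4 without any 1 tumor. CCL28, a mucosal chemokine, was at 43.1, 76.1, 33.5 and 51.2 CPM at 48 h and at 10.3, 9.15, 16.7 and 11.7 CPM in vehicle (2.09 ± 0.32, adjusted p = 0.000319). CXCL16 was at 92.4, 108, 96.7 and 101 CPM at 48 h and at 53.2, 52.2, 53.1 and 49.2 CPM in vehicle (0.94 ± 0.18, adjusted p = 0.00168). Both had groups that did not overlap. LIF, a cytokine of the interleukin 6 family, was at 276, 250, 281 and 275 CPM at 48 h and at 223, 219, 189 and 178 CPM in vehicle and did not pass (adjusted p = 0.133). Of 19 genes for MHC class I presentation 3 rose and 0 fell, among the rises the heavy chain genes HLA-B (1.51 ± 0.29) and HLA-C (1.41 ± 0.26), which share reads. All 19 log2 fold changes lay above 0 (median 0.36), as did 8889 of all 18242 genes. Higher in every 48 h tumor than in any vehicle tumor were 5, against 10.2% of all genes. The list mean was 6.33 to 6.69 log2 CPM at 48 h and 5.89 to 6.3 in vehicle, without overlap. HLA-B was at 250, 371, 272 and 437 CPM at 48 h and at 102, 86.6, 125 and 152 CPM in vehicle. B2M, the light chain, was at 1479, 1475, 1256 and 1767 CPM at 48 h and at 830, 732, 1177 and 917 CPM in vehicle, without overlap but not past the test (0.71 ± 0.27, adjusted p = 0.103). Of 31 interferon-stimulated genes 2 rose (ISG20 and IFITM2) and 1 fell (OASL), close to the shares over all genes. There were 5 rises without vehicle tumor 4, 3 falls without vehicle tumor 3, 2 without vehicle tumor 2 and 0 without 48 h tumor 2 or either of the remaining vehicle tumors. Host myeloid and endothelial genes were called in 0 of 7 and 0 of 8, and the summed myeloid level was 427 to 673 CPM at 48 h and 479 to 720 CPM in vehicle. FCGR3A, ADGRE1 and TYROBP were at zero in all 8 tumors, and 10 lymphocyte genes summed to at most 0.904 CPM at 48 h and 2.64 CPM in vehicle. Host cells here are mouse cells, while the processing notes list a human genome build. Low or zero levels therefore do not show that such cells were absent, nor a lack of calls that they were unchanged.

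Genes of sugar metabolism gave no calls against vehicle. Of 21 glycolysis genes 0 rose and 0 fell. GAPDH averaged 2619 ± 438 CPM at 48 h and 2835 ± 182 CPM in vehicle, and LDHA, lactate dehydrogenase, 3563 ± 174 CPM at 48 h and 3071 ± 328 CPM in vehicle (SD, n = 4 each). SLC2A1, the glucose transporter GLUT1, was at 1222, 1485, 1378 and 1493 CPM at 48 h and at 682, 904, 1310 and 874 CPM in vehicle, with overlap from vehicle tumor 3 and an adjusted p of 0.273. VEGFA, the angiogenic factor, was the 1 rise of 21 hypoxia genes, with 362, 604, 329 and 589 CPM at 48 h and 179, 182, 337 and 270 CPM in vehicle (0.96 ± 0.28, adjusted p = 0.0299); its call did not hold without 48 h tumor 2 or 4 or vehicle tumor 1 or 2. Of 30 nuclear respiratory chain genes 0 were called.

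Of 24 genes of amino acid supply and the ATF4 response 6 fell and 1 rose, with 3 falls without 48 h tumor 1 or 4. MTHFD2, of mitochondrial one-carbon metabolism, was at 35.4, 33.8, 42.2 and 31.6 CPM at 48 h and at 67.5, 67.2, 59.3 and 57 CPM in vehicle (-0.81 ± 0.17, adjusted p = 0.00254). PSAT1, of serine synthesis, was at 3.24, 2.76, 3.56 and 2.16 CPM at 48 h and at 11.8, 10.3, 4.33 and 9.92 CPM in vehicle (-1.63 ± 0.40, adjusted p = 0.0107). Neither overlapped. ATF4 itself averaged 202 ± 28.5 CPM at 48 h and 223 ± 13.2 CPM in vehicle. Of 24 genes of fatty acid and triglyceride synthesis 3 rose and 1 fell, with 4 falls without 48 h tumor 3, 2 without vehicle tumor 3 and 0 without 48 h tumor 2 or 4 or any of the other vehicle tumors. MLXIPL, the glucose-sensing factor ChREBP, was at 33.6, 79.6, 27.4 and 55.6 CPM at 48 h and at 6.93, 8.04, 7.12 and 11.6 CPM in vehicle (2.54 ± 0.44, adjusted p = 0.000936). DGAT1, which makes triglycerides, averaged 394 ± 90 CPM at 48 h and 202 ± 9.82 CPM in vehicle. Of 24 cholesterol synthesis genes 0 rose and 1 fell (LSS), with 7 falls without 48 h tumor 3, 5 without vehicle tumor 3 and 0 without any 1 of the others. Of 31 lysosome genes 4 rose and 0 fell, with 2 rises without 48 h tumor 4 or vehicle tumor 1 or 2. CTSD, the protease cathepsin D, was at 509, 687, 440 and 664 CPM at 48 h and at 184, 222, 219 and 193 CPM in vehicle (1.49 ± 0.24, adjusted p = 0.000469). Of 26 genes of drug handling 4 rose and 1 fell. SULT2B1, a sulfotransferase, was at 23.4, 28.6, 26.4 and 46.1 CPM at 48 h and at 7.33, 8.13, 12.7 and 8.39 CPM in vehicle (1.77 ± 0.27), while UGT1A1 (1.53 ± 0.32) and UGT1A10 (1.06 ± 0.24) share exons and so share reads.

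Mitochondrially encoded mRNAs held 11.6% to 12.81% of counts at 48 h and 8.00% to 10.8% in vehicle. Of 13 such genes 1 rose, MT-ND6, and 10 were higher in every 48 h tumor than in any vehicle tumor, against 10.2% of all genes. With only these 8 tumors fitted, 9 were called. MT-CO1, of the cytochrome oxidase, was at 37464, 40163, 38987 and 34858 CPM at 48 h and at 28845, 26159, 20058 and 28240 CPM in vehicle, and did not pass (0.55 ± 0.27, adjusted p = 0.231). MT-ND6, the 1 mRNA of the light strand, was at 2885, 3732, 3691 and 4011 CPM at 48 h and at 1573, 1665, 1611 and 1992 CPM in vehicle (1.07 ± 0.30), and was not called without 48 h tumor 2 or 4 or vehicle tumor 1 or 2. Leaving these genes out before scaling gave 938 rises and 898 falls in all. Of 22 p53 targets 3 rose (TP53INP1, BBC3 and TP53I3) and 2 fell, with 1 rise without 48 h tumor 3 or 4 or vehicle tumor 1 or 2. BBC3, the cell death gene PUMA, was at 10.5, 14.7, 14.4 and 14.4 CPM at 48 h and at 7.86, 8.76, 8.91 and 9.92 CPM in vehicle (0.61 ± 0.17, adjusted p = 0.0272). PMAIP1, its relative NOXA, was at 18.2, 12, 22.9 and 12.4 CPM at 48 h and at 30.7, 26.7, 33.1 and 33.5 CPM in vehicle (-0.92 ± 0.23, adjusted p = 0.0134). These were the 1 rise and 1 fall of 14 BCL2 family genes, and both calls were lost without 48 h tumor 2 or 4, and that of BBC3 also without 48 h tumor 3 or vehicle tumor 1 or 2.

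Circadian clock genes were read because the groups differ in hours since dosing. Of 20 genes 2 rose, CRY2 (0.44 ± 0.13) among them, and 1 fell. Leaving out 48 h tumor 1, 2 or 4 or any vehicle tumor but the third left 1 rise, and with only these 8 tumors fitted 6 rose. BMAL2 was at 12.8, 6.54, 20 and 13.2 CPM at 48 h and at 30.7, 28.3, 40.7 and 40.2 CPM in vehicle (-1.41 ± 0.26, adjusted p = 0.00114). The output gene DBP averaged 7.68 ± 1.21 CPM at 48 h and 4.73 ± 1.18 CPM in vehicle, and NR1D1, which encodes REV-ERB alpha, 41.5 ± 11.2 CPM at 48 h and 26.3 ± 2.82 CPM in vehicle; neither passed. Further single rises came from the glucocorticoid-responsive TSC22D3 (1.09 ± 0.17, the 1 call of 14), the heme oxygenase gene HMOX1 (1.22 ± 0.23, with OSGIN1 the 2 calls of 26 on the NRF2 list, near the share over all genes and down to 1 without 48 h tumor 2, 3 or 4 or any vehicle tumor but the third, and up to 3 without 48 h tumor 1) and S100A14 (1.41 ± 0.19, the 1 call of 10). TGF-beta targets gave 0 rises and 0 falls of 22.

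The remaining lists had few calls, most at shares near those over all genes. On 22 YAP-TEAD targets 2 rose, among them F3, tissue factor (0.80 ± 0.17), and 1 fell, NT5E, the ectonucleotidase CD73 (-0.97 ± 0.26). On 15 Notch genes JAG2 rose and NOTCH2 fell, and on 22 genes of CDK inhibitors and quiescence TOB1 rose. CREB3L1 was the 1 call of 20 genes of the unfolded protein response, at 41.8, 98.9, 51.8 and 144 CPM at 48 h and 12, 14.4, 30.5 and 29.6 CPM in vehicle. On 16 heat shock genes HSPB1 rose and HSPD1 fell, on 8 metallothionein genes MT1E fell, and on 9 histone genes H2BC4 fell. Of these single calls, that of F3 held without any 1 tumor, while the calls on the heat shock, metallothionein and histone lists and those of CREB3L1, NOTCH2 and NT5E did not hold without 48 h tumor 2. Without a threshold, 6 of 16 heat shock and 3 of 9 histone genes were lower in every 48 h tumor, against 9.26% of all genes. Higher in this way were 1 and 0, against 10.2%. The list means were lower without overlap for heat shock (-0.186 in log2 CPM), histone (-0.387) and YAP-TEAD genes (-0.347). Those of the Notch, CDK inhibitor, unfolded protein and metallothionein lists overlapped. Host adipocyte, muscle and red cell genes summed to 283 CPM in vehicle tumor 2, against 5.66 to 16.7 CPM at 48 h and 11.1 to 17 CPM in the other vehicle tumors, with 0 of 7 called. The called genes with the highest CPM were EPCAM, MT-ND6, AHNAK2, GPRC5A and TSPAN1 among the rises and VIM, RPS2, PPIA, HNRNPA1 and RPL3 among the falls. TSPAN1, a tetraspanin, was at 1138, 1470, 1058 and 1530 CPM at 48 h and at 402, 433, 558 and 460 CPM in vehicle (1.49 ± 0.22), and GPRC5A at 1417, 1478, 1662 and 1607 CPM at 48 h and 983, 970, 1132 and 972 CPM in vehicle (0.60 ± 0.12).

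Direct tests of 48 h against 24 h called 451 genes higher (2.47%) and 291 lower (1.60%), and tests against 8 h called 3127 higher (17.1%) and 2054 lower (11.3%), with 1300 lower without 48 h tumor 1. The calls against 24 h rested on single tumors. They numbered 268 higher and 156 lower without 48 h tumor 1, 294 and 179 without 48 h tumor 2, 178 and 120 without 48 h tumor 3, and 322 and 184 without 48 h tumor 4. They numbered 214 and 159 without 24 h tumor 1, 750 and 612 without 24 h tumor 3, and 208 and 141 without 24 h tumor 4. Mitochondrially encoded mRNAs held 31.41% of counts in 24 h tumor 1 and 12.06% to 14.44% in the other 24 h tumors, against which the 48 h tumors had 11.6% to 12.81%. ERK output genes were higher at 48 h than at 8 h in 9 of 10 and than at 24 h in 3 of 10 (PHLDA1, DUSP6 and EPHA2). The second count was 0 without 48 h tumor 3, 1 without 24 h tumor 1, 2 or 4, and 2 to 4 otherwise. Glycolysis genes were higher at 48 h than at 24 h in 11 of 21, and in 8 to 12 with 1 tumor left out, 9 of 21 without 24 h tumor 1. LDHA was 1.14 higher on the log2 scale (adjusted p = 0.00165) and SLC2A1 1.93 higher (adjusted p = 0.00136), with a mean of 1395 CPM at 48 h and 366 CPM at 24 h. Both calls held without any 1 tumor of these times. Integrin and adhesion genes were higher at 48 h than at 24 h in 8 of 22, with 2 without 48 h tumor 3, 3 without 24 h tumor 4, 4 without 48 h tumor 1 or 24 h tumor 1 and 5 without 24 h tumor 2. Ribosome biogenesis genes were higher than at 8 h in 24 of 26 and than at 24 h in 0.

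Of the mitotic genes 2 of 28 were called against 24 h, both lower at 48 h. KIF20A and PTTG1, the securin gene, were lower at 48 h than at 24 h, by -1.53 (adjusted p = 0.0120) and -1.35 (adjusted p = 0.0164) on the log2 scale. The call of KIF20A held without any 1 tumor of these times, and that of PTTG1 did not hold without 48 h tumor 2. PTTG1 was at 9.62, 6.38, 12.2 and 12.2 CPM at 48 h and at 48.7, 39.9, 27 and 40.3 CPM in vehicle, with means of 25.8 CPM at 24 h and 22.1 CPM at 8 h. The mean log2 CPM of the mitotic list was 5.43 ± 0.41 (SD, n = 4) in vehicle, then 3.79 ± 0.40 for the 2 h tumors, 4.76 ± 0.25 for 4 h, 4.11 ± 0.74 for 8 h, 4.32 ± 0.36 for 24 h and 3.56 ± 0.62 for 48 h. Gut brush border genes showed 0 of 25 called between 48 h and 24 h, with list means of 3.48 ± 0.16 in vehicle, then 4.68 ± 0.23 for the 2 h tumors, 4.66 ± 0.15 for 4 h, 4.83 ± 0.27 for 8 h, 4.88 ± 0.35 for 24 h and 4.95 ± 0.32 for 48 h. For BTNL3 the difference between 48 h and 24 h was -0.20 (adjusted p = 0.808) and for MUC12 -0.16 (adjusted p = 0.729), and a missed threshold does not show that the times were alike.

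**Figure D5:**
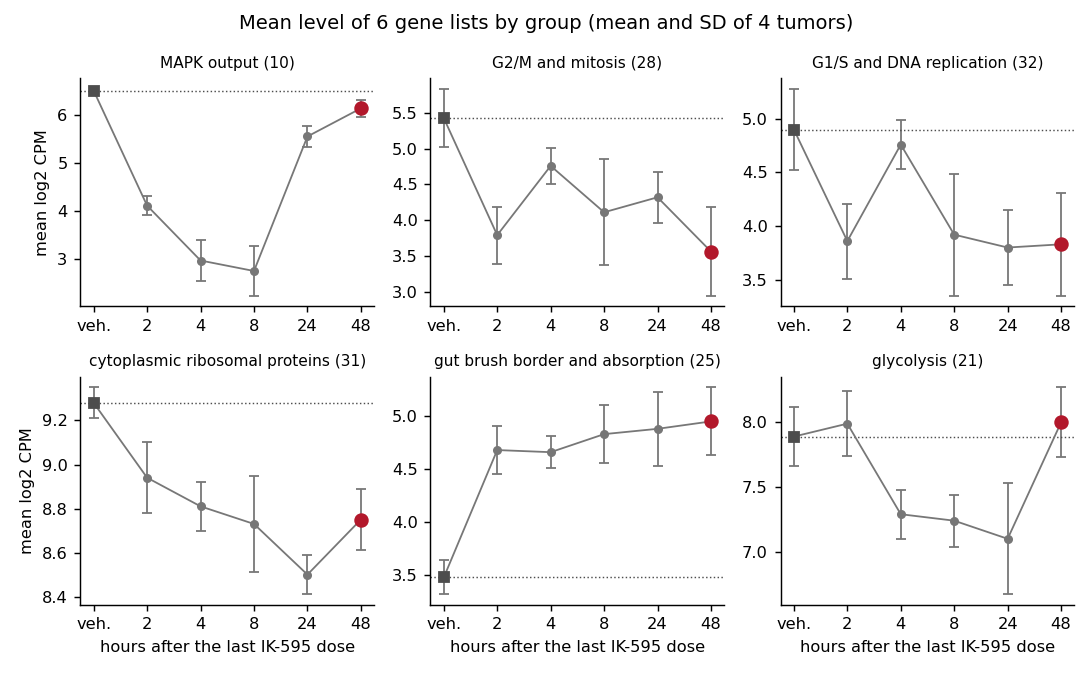
Mean log2 CPM of 6 gene lists (number of genes in brackets) in vehicle tumors (square, dotted line) and at 2, 4, 8, 24 and 48 h after the last IK-595 dose, with SD of 4 tumors and the 48 h mean in red. MAPK output returns to 6.15 at 48 h beside 6.52 in vehicle, glycolysis to 8.00 beside 7.89, while G2/M lies at 3.56 beside 5.43 and gut brush border at 4.95 beside 3.48.

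Some genes were called on opposite sides of vehicle at 48 h and at 8 h, comparisons that share the vehicle tumors. At 8 h, 20.6% of genes were called higher than vehicle and 23.7% lower. Among the 6 with the largest 48 h change and a mean log2 CPM of at least 2, C11orf86 was at 63.8, 83.4, 56.1 and 64.4 CPM at 48 h and at 22.1, 34.2, 35 and 18.6 CPM in vehicle, with a mean of 14.5 CPM at 8 h. HSD17B2, which oxidizes sex steroids, was at 89, 120, 84 and 117 CPM at 48 h and at 43.1, 39.7, 55.5 and 53.6 CPM in vehicle, with a mean of 25.4 CPM at 8 h. Neither group of 48 h values met vehicle. The other members, MDFI, DLK2, SYT12 and the glutathione-degrading CHAC1, were likewise higher at 48 h than in vehicle, by 1.43, 1.03, 1.03 and 1.19 on the log2 scale, and higher at 48 h than at 8 h by 2.25, 1.74, 1.60 and 1.95. Genes called the same way at both times with the largest ratio of 48 h to 8 h change included KIF20A, PTTG1, RDH13, HMGB2 and IL2RG. HMGB2, a chromatin protein of dividing cells, was at 58.7, 48.4, 73 and 60.2 CPM at 48 h and at 153, 126, 111 and 146 CPM in vehicle (-1.16 ± 0.15, adjusted p = 8.69e-05), with a mean of 94.8 CPM at 8 h. IL2RG, the common cytokine receptor chain, was at 433, 510, 450 and 535 CPM at 48 h and at 172, 193, 277 and 233 CPM in vehicle (1.14 ± 0.17), with a mean of 311 CPM at 8 h. APOBEC3B, a cytidine deaminase, was at 4.24, 1.97, 3.72 and 3.12 CPM at 48 h and at 19.3, 13.8, 9.01 and 11.6 CPM in vehicle (-2.04 ± 0.36, adjusted p = 0.000873), and lower at 48 h than at 8 h by -1.62. Its near relatives in the same gene cluster can share reads.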

How the data were processed

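PolyA RNA of xenograft tumors was sequenced as paired reads, per the labels. Estimated counts per gene were deposited by the authors, and the submitters' processing notes list Salmon 0.14.1, FastQC 0.12.1, bcl2fastq 2.17 and the build GRCh38.p13. TPM values were deposited by the authors beside them and used for 2 alternatives. For the annotation release, strand setting and treatment of mouse reads the sources used here make no statement, so antisense partners and host reads of like sequence cannot be told apart. Groups were read from the titles, as the treated samples' time tag mentions vehicle.

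Estimated counts were rounded, as 59.6% of values above 0 were whole to within 0.0015. Genes kept by filterByExpr (18242, with 99.9% of counts) went through TMM scaling and a joint fit of the 24 tumors, sharing 1 estimate of spread, in edgeR 4.0.16 (R 4.3.3; quasi-likelihood test, robust), and p-values were adjusted by Benjamini-Hochberg over all genes. Log2 CPM used a prior count of 2. Of 60230 gene IDs, 57972 had a type and coordinates in GENCODE v29 (GRCh38); promoters came from RefSeq on GRCh38.p14.

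The comparison, the 53 lists (1034 genes, 1033 matched) and the alternatives were chosen with earlier results of these data known. Named were the 12 largest rises and falls, the 10 ERK output genes, from each list with at least 3 called members up to 3 with the smallest adjusted p each way and the member of highest CPM not called, the 5 called genes of highest CPM each way, and 6 genes each for opposite and same-direction changes at 8 h. Of these, some are not reported here; other genes were chosen after their values were seen. Alternatives were DESeq2 1.42.0, limma 3.58.1 (voom, or trend on log2(TPM + 1) and log2(TPM + 0.1)), RLE and upper-quartile scaling, other filters, the 8 tumors alone, a replicate block, no mitochondrial genes, stricter thresholds and leaving out each tumor, the last added for the comparisons between times after the data were seen. Simulated data with planted changes were used to test the pipeline.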

Additional observations from a re-analysis of the deposited data

Results flagged for a closer look

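Single tumors stood apart in 15 of 378 groups of 4 (189 genes checked, each at 48 h and in vehicle), by the gap to the nearest tumor over the range of log2 CPM. Chance flags about 1 in 20 groups where groups are independent. These genes were read in the same tumors and most were named for their calls, so the count cannot be judged by that rate. At 48 h these were tumor 1 for KRT17 (0.838) and BBC3 (0.951), tumor 2 for VIM (0.908) and DUSP8 (0.863), tumor 3 for POLH (0.950) and tumor 4 for AHNAK2 (0.894). In vehicle these were tumor 3 for IGFN1 (0.844), FBL (0.842), ANPEP (0.928), EPCAM (0.831), GPRC5A (0.913), RPL3 (0.895) and LCN2 (0.861), and tumor 1 for KLF2 (0.855) and MDFI (0.893).

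Of the named genes 26 differed between 48 h and 24 h by edgeR's test. Of these, 19 were still called without 24 h tumor 1, whose mitochondrial share stood apart, and 11 without any 1 tumor of these times: KIF20A, EFNB1, EPHB4, F3, GPRC5A, C11orf86, SYT12, BMP6, SLC2A1, LDHA and S100A14. Growth signal genes had log2 fold changes of 1.03 for PHLDA1, 1.23 for DUSP6, 1.01 for EPHA2, 0.76 for EFNB1, 0.56 for EPHB4 and 0.86 for MET. Surface and adhesion genes gave 0.90 for CEACAM6, 1.43 for TNS4, 0.82 for ITGB1, 1.27 for F3, 0.55 for MYOF, 0.89 for GPRC5A and 1.32 for S100A14. Metabolic genes gave 1.93 for SLC2A1, 1.14 for LDHA and 0.59 for GAPDH. Further genes higher at 48 h than at 24 h were BHLHE40 (0.82), RPL3 (0.51), C11orf86 (1.53), SYT12 (0.95) and BMP6 (2.50). Lower at 48 h than at 24 h were KIF20A (-1.53), PTTG1 (-1.35), TP53INP1 (-0.83), ALDH3A1 (-1.46) and APOBEC3B (-1.46). Against 8 h, the differences were 1.95 for CHAC1, 2.25 for MDFI, 2.20 for C11orf86, 2.01 for HSD17B2, 1.74 for DLK2 and 1.60 for SYT12.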

How the results depend on the processing

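The count of genes that rose at 48 h was 1007 and of those that fell 814. With limma on log2(TPM + 1), 494 rose, and on log2(TPM + 0.1), 533 rose and 493 fell. At an adjusted p under 0.01 the counts were 477 and 340, and with a fold of at least 2, 451 and 324. Leaving out 1 tumor at a time gave 581 to 1049 rises and 382 to 870 falls. Counts within 1.5 times of these came from DESeq2 (1347 and 1085), limma-voom (977 and 970), the 8 tumors alone (1363 and 1113), no low-count filter (688 and 611), a CPM filter (1130 and 823), RLE (1031 and 798) and upper-quartile scaling (992 and 805), and removal of mitochondrial genes (938 and 898). Between 48 h and 24 h, leaving out 1 tumor, an alternative chosen after seeing the data, gave 178 to 750 higher and 120 to 612 lower, and between 48 h and 8 h 2462 to 3079 higher and 1300 to 1905 lower. The cause of the moves was not tested. The ERK output difference of -0.379 ranged from -0.431 to -0.316. No sign among the called genes chosen for naming reversed, and 109 of 151 kept their call when any 1 tumor was left out. With limma on log2(TPM + 1) 35 of the 151 calls were lost, and on log2(TPM + 0.1) 34. In every alternative other than the stricter thresholds 100 were kept.

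Replicate numbers were not treated as pairs in the main fit. Among 60 same-numbered pairs across groups, deviations from group means had a mean correlation of -0.013 (-0.461 to 0.503), with 20 over 0.1. Between 48 h and vehicle 1 of 4 was over 0.1, and 2 of the 48 h tumors matched best the vehicle tumor of their own number. Differently numbered pairs were not set beside these, so this check cannot decide whether the numbers pair tumors. With the replicate block 903 genes rose and 730 fell. With 4 tumors a group and a median SE of 0.23, small changes can go undetected, and p-values cover the spread between these animals.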
